A study of Mus musculus with 2 samples.

Results

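Complement and coagulation are the proteolytic cascades of blood plasma, and their genes were followed here in livers of mice that drank squalene, the triterpene from which cholesterol is made. The set was chosen by gene symbol and lists 44 genes, of which 41 had a probe set annotated with that symbol alone, among 12393 genes with such a probe set on the array. C3, Cfd and Cpb2 were not among the 41, and their signals were not analysed here. Where a gene had several probe sets, the brightest one by its mean log2 signal over both pools stood for it.

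The study compared 2 pools of liver RNA on 1 Affymetrix array each. Both pools came from male mice deficient in apolipoprotein E, on a mixed C57BL/6J and OLA129 background, for which the labels give an age of 2 months and 10 weeks on the diets. The control pool ate chow and drank water with 1% glycerol, and the squalene pool ate the same chow with squalene added to that drink, at 1 g per kg per day. All animals thus lacked apolipoprotein E and took glycerol, no pool of wild-type mice was part of the comparison, and the number of livers per pool is unstated in the sources used here. With 1 array for each pool there is no replicate and no test between the pools, and every ratio below is the squalene pool over the control pool on these arrays.

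Complement marks particles for removal through the classical, lectin and alternative pathways, which meet at C3 and end in a membrane pore. Coagulation turns fibrinogen into a fibrin mesh through a chain of serine proteases, which inhibitors and the plasmin system hold in check. Hepatocytes make most of these plasma proteins. Resident macrophages of the liver, the Kupffer cells, and other myeloid cells make the chains of C1q and properdin and carry the receptors for the fragments C3a and C5a.

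A gene was counted as measured when the mean log2 signal of its probe set over both arrays was at or above the median of all probe sets, which corresponds to a signal of 38.4. Of the 41 genes, 37 were measured, and 35 of these lay in the brightest tertile of the 6902 measured genes. In that tertile the log2 ratio had a standard deviation of 0.18 between probe sets of the same gene, taken over 831 genes with a pair of probe sets. It was 0.33 in the middle tertile, over 919 genes, and 0.45 in the dimmest, over 599. This spread reflects the probes on the same arrays and leaves out any difference between animals or between hybridizations.

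The chains of C1q and properdin had lower signals in the squalene pool, while the factors made by hepatocytes read nearly alike in both. The median log2 ratio was -0.59 over the 4 measured macrophage-made genes, C1qa, C1qb, C1qc and Cfp, and -0.02 over the 32 hepatocyte-made genes. The medians differed by -0.56, or 1.48-fold. All 4 macrophage-made genes lay below 0, and 31 of the 32 hepatocyte-made genes lay above the highest of them. Mbl1, at -0.503, was the exception. The median over all 6902 measured genes was 0.01. Of these genes 49.0% lay below 0, and 10.0% lay at or below Cfp, the highest of the 4 macrophage-made genes.

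**Figure D1:**
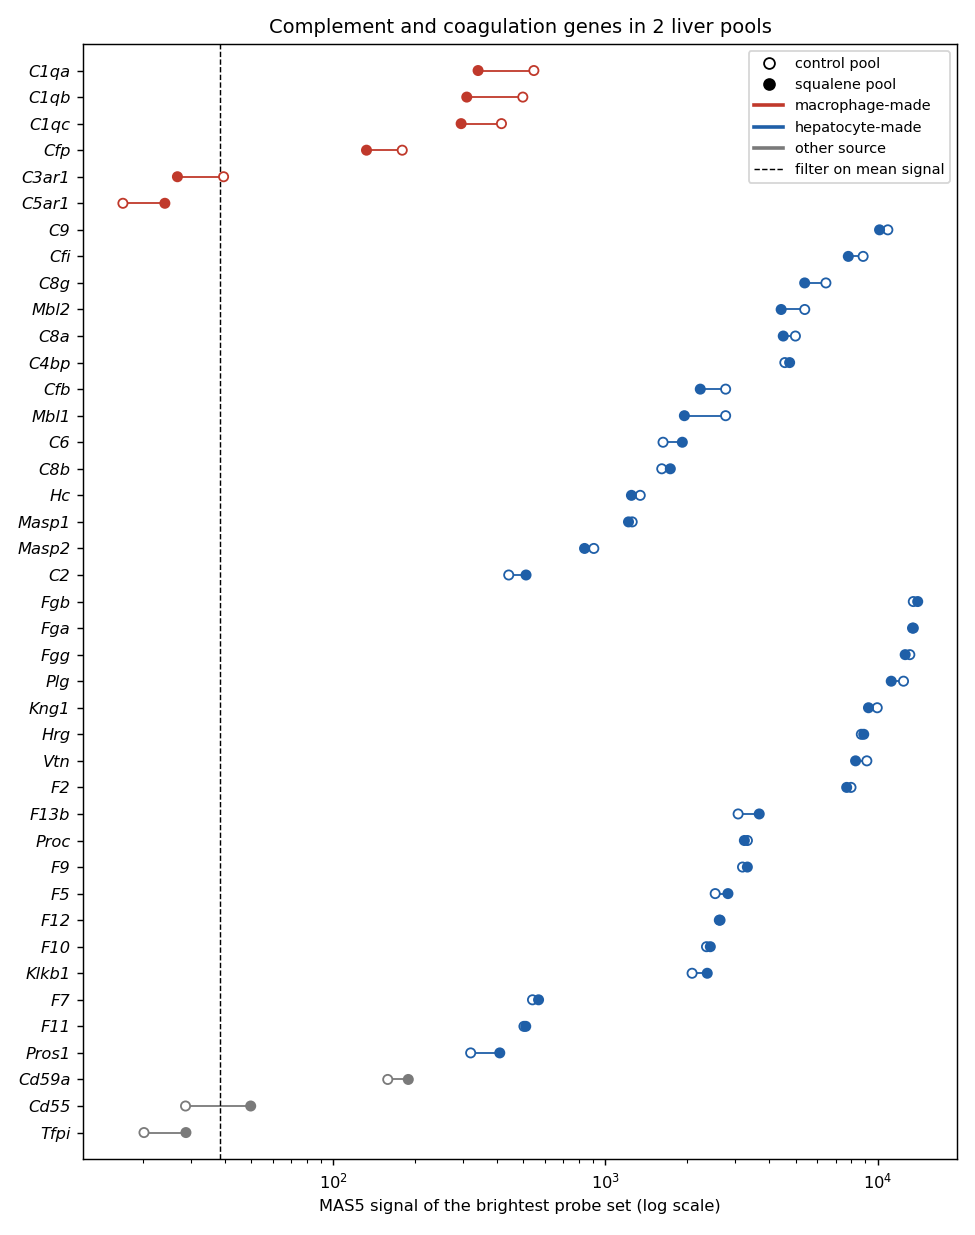
MAS5 signal (log axis) of each gene's brightest probe set in the control pool (open circles) and the squalene pool (filled circles), 1 array per pool, coloured by the main source of the protein, with the filter on mean signal as a dashed line. Circles should be compared within a row, since probe sets of different genes are not on a common scale. C1qa, C1qb, C1qc and Cfp have the filled circle to the left, and most hepatocyte-made genes have circles that nearly touch.

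Counted at an absolute log2 ratio of 0.5, 0 of the 37 measured genes were higher in the squalene pool and 3 were lower, namely C1qa, C1qb and Mbl1. Among all measured genes 9.21% were higher and 8.08% were lower past that limit, so 3 of 37 (8.11%) is a share near the background. Bright genes vary less: in the brightest tertile 3.35% were higher and 3.39% were lower. All 3 of the lower genes belong to that tertile. None of the 37 reached the log2 limit of 1.5 that the submitters used as their screen, which 0.362% of measured genes passed. Mbl1 at -0.503 stood just inside the limit of 0.5 and C1qc at -0.492 just outside it.

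The 18 probe sets of the hybridization spike-ins were all dimmer in the squalene pool, by a median of -0.26 on the log2 scale. Using them to scale the arrays would add 0.26 to every ratio and move the median of all measured genes to 0.27. The 4 macrophage-made genes would then have a median of -0.33 and the hepatocyte-made genes one of 0.24, with the difference between them as it was. The count past 0.5 would become 3 higher and 0 lower of the 37, beside 24.3% higher and 2.91% lower of all measured genes at that scaling. Ratios below are therefore best read relative to those of the other genes on the arrays.

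**Figure D2:**
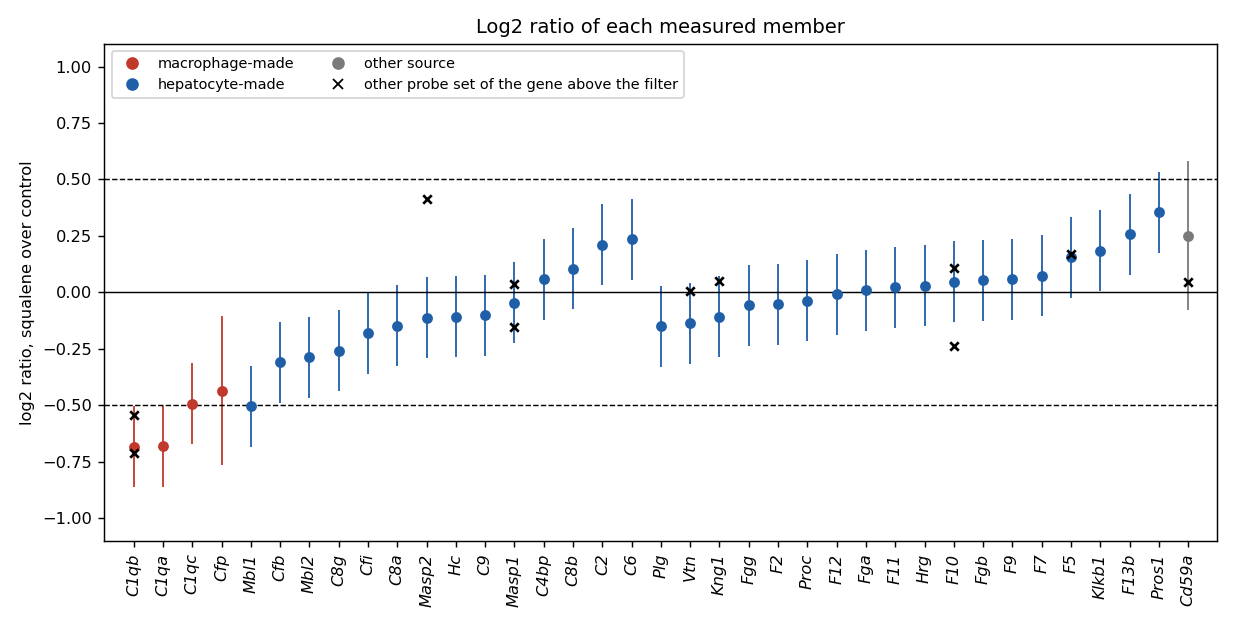
Log2 ratio of squalene over control for each of the 37 measured genes, ordered within source and system. Bars are 1 SD between probe sets of the same gene in that tertile of brightness (0.18, or 0.33 for Cfp and Cd59a). Crosses are further probe sets above the filter. The red points of C1qb, C1qa, C1qc and Cfp lie between -0.68 and -0.44, and the blue points of the hepatocyte-made genes between -0.50 and 0.36.

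C1q is the recognition molecule of the classical pathway, a bouquet of collagen-like stalks and globular heads that binds antibody complexes and dying cells, and it is assembled from the products of C1qa, C1qb and C1qc. C1qa read 546.1 in the control pool and 340.7 in the squalene pool, 1.60-fold lower (log2 ratio -0.68). For C1qb the signals were 497.4 and 309.6, 1.61-fold lower (-0.68). C1qc gave 415.2 and 295.2, 1.41-fold lower (-0.49). All 3 chains were thus lower by more than the spread of 0.18 between probe sets in their tertile, and by like amounts. Their mean signals, from 350.1 to 431.3, lie near the lower end of that tertile, which starts at 321.0. The 3 ratios also exceed the spread of 0.33 in the middle tertile. In rank, 4.19% of all measured genes had a ratio at or below that of C1qa, 4.14% at or below that of C1qb and 8.24% at or below that of C1qc. The other 2 probe sets of C1qb gave -0.71 (470.9 against 287.4) and -0.54 (404.1 against 277.5), so the 3 probe sets of this gene had the same sign and a similar size. C1qa and C1qc had 1 probe set each. In a bulk liver sample, fewer cells of a type and less RNA per cell cannot be told apart.

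The C1q genes are neighbours in the RefSeq gene table, in the order C1qb, C1qc and C1qa, with no other protein-coding gene between them. Promoters from RefSeq (build GRCm38.p6) were at hand for 36 of the 44 genes, among them C1qb and C1qc. The 250 bases before the start site are printed for those neighbours, for Mbl1, the hepatocyte-made gene with the lowest ratio, and for Fgb, the brightest of the set, so that the promoters of genes that differed and of one that did not can be compared. Capitals mark matches, on either strand, to GAGGAA (which holds the core of sites for PU.1, a myeloid transcription factor), GTTAAT (a half-site of the hepatocyte factor HNF1), CAAAGTCCA (a form of the site for HNF4) and TTGCNNAA (a form of the C/EBP site). No match overlaps another in the sequences shown.
C1qb, chr4:136886201-136886450, minus strand: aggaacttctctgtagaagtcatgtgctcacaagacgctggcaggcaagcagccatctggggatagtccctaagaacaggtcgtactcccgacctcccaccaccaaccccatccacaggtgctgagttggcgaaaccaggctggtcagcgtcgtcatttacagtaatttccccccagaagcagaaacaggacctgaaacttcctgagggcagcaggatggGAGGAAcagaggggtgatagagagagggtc
C1qc, chr4:136892915-136893164, minus strand: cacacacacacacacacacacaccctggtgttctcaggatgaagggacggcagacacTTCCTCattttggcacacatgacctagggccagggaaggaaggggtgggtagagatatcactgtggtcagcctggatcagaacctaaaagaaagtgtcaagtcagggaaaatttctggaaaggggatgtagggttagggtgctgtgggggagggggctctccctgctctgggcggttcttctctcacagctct
Mbl1, chr14:41151206-41151455, plus strand: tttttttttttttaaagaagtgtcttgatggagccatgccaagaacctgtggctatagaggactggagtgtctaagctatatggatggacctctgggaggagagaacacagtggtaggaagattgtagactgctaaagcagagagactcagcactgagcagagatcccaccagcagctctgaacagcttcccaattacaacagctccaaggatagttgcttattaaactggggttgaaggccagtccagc
Fgb, chr3:83049864-83050113, minus strand: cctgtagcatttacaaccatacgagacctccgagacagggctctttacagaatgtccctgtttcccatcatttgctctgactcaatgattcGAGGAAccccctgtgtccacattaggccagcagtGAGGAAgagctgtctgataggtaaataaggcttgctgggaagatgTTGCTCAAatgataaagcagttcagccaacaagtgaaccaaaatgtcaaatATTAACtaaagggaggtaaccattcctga

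C1qb and C1qc each held 1 match to GAGGAA, starting 30 bases before the start site in C1qb and, on the opposite strand, 193 bases before it in C1qc. Fgb held 2 matches to GAGGAA, 1 to GTTAAT and 1 to TTGCNNAA, and Mbl1 held 0 matches to any of the 4 motifs. By group, GAGGAA was found in 2 of 5 macrophage-made genes with a promoter and in 2 of 27 hepatocyte-made genes (7.41%). It was also in 2 of 4 genes of other source, Cd59a and Tfpi, and in 23.3% of the 32851 promoters in the table. GTTAAT was found in 8 of the 27 hepatocyte-made genes (29.6%) and in 6.43% of all promoters, and Cfp was the 1 macrophage-made gene that held it. TTGCNNAA was likewise in 8 of the 27 (29.6%), in 0 of the 5 and in 9.56% of all promoters. These 8 include C3, since the promoter search took the listed genes whether or not they had a signal. Shares of the set count genes, while those of the table count promoters, 32851 for 27025 genes. CAAAGTCCA matched no promoter of the set and 0.384% of all. A match describes the letters of this window and does not show that a factor binds there.

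Properdin, encoded by Cfp on the X chromosome and released by leukocytes, stabilises the C3 convertase of the alternative pathway. Cfp read 179.4 in the control pool and 132.6 in the squalene pool, 1.35-fold lower (log2 ratio -0.44). That exceeds the spread of 0.33 between probe sets at its brightness by little, and 10.0% of measured genes had a ratio at or below it. The anaphylatoxin receptors were too dim to place. C3ar1, the C3a receptor, read 39.6 and 26.8 on its brighter probe set and 21.5 and 12.7 on the other. C5ar1, which binds C5a, read 16.9 and 24.1. Both receptors fell below the filter with signals under the array median in both pools, and their ratios pointed in opposite directions, at -0.56 and 0.51. No direction can be given for the receptors from these arrays.

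Markers of macrophages and Kupffer cells were lower in the squalene pool as well. All 14 measured markers of the 18 listed lay below 0, 9 of them past 0.5 (64.3%), with a median of -0.70. Among all measured genes 49.0% lay below 0 and 8.08% were lower past 0.5, and in the dimmest tertile 15.1% were lower. The summed signal of the 14 markers was 7374.8 in the control pool and 4758.3 in the squalene pool (log2 ratio -0.63). The summed signal of the C1q chains was 1458.7 and 945.5 (-0.63), and their median -0.68. Bright probe sets weigh most in such sums, and the single measured markers ran from -1.76 to -0.08. The 4 brightest markers were Csf1r, the receptor for macrophage growth factor (-0.56), Cd5l, a secreted macrophage protein (-0.40), Vsig4, the complement receptor of Kupffer cells (-0.69), and the Kupffer cell lectin Clec4f (-0.70). Adgre1, which encodes F4/80, stood at -0.08. Cd163 (0.24), Fcgr1 (-1.31) and Aif1 (-0.53) were below the filter, and Cd163 was the only listed marker on the array with a ratio above 0. The part of the macrophage markers in the ratios of C1q and properdin was not tested.

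**Figure D3:**
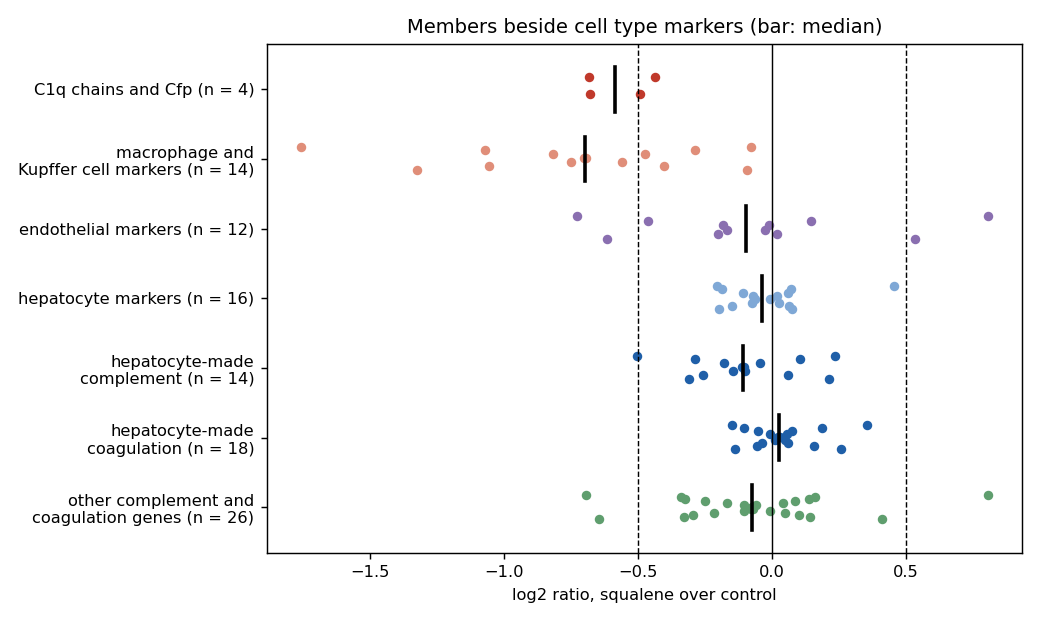
Log2 ratio of squalene over control for measured genes in 7 groups, with the median of each as a bar and the limits at -0.5 and 0.5 as dashed lines. The C1q chains and Cfp (median -0.59) lie within the range of the macrophage markers (median -0.70), and both hepatocyte-made groups lie around 0 with the hepatocyte markers.

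Hepatocyte markers, by contrast, had a median of -0.04 over 16 measured genes, from -0.21 for Ttr to 0.45 for Tat. Of the 16, 0 passed 0.5 either way, beside 3.35% higher and 3.39% lower in the brightest tertile, where all 16 lie. The brightest hepatocyte markers were Apoa1 (-0.06), Apoa2 (-0.15), Ttr (-0.21) and Alb (-0.19). Liver endothelial markers had a median of -0.10 over 12 genes, with 2 higher and 2 lower past 0.5. Among all measured genes 9.21% were higher and 8.08% were lower. Clec4g (-0.73) and Fcgr2b (-0.62), the brightest of the 12 markers, were the lower pair, and Vwf (0.81) and Stab1 (0.53) the higher pair. Of the stellate cell list 6 genes were measured. Dcn (-0.07), Reln (0.02) and Rgs5 (0.01), the brightest, lay near 0, and the dimmer Col1a2 (-0.71), Col3a1 (-0.70) and Pdgfrb (-0.70) were lower. Lymphocyte markers were all below the filter (0 of 9 measured), as were adipose markers (0 of 3), while 1 of 7 neutrophil markers was measured, S100a8 at -0.50. Measured red blood cell and exocrine pancreas markers also lay below 0, namely Alas2 (-0.47), Cela1 (-0.31) and Prss2 (-0.40).

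Mbl1, a gene of the lectin pathway, had the lowest ratio of the hepatocyte-made complement genes. This pathway starts when mannose-binding lectins recognise sugars on microbes and activate the attached proteases. Mbl1, for mannose-binding lectin A, read 2764.3 in the control pool and 1950.0 in the squalene pool, 1.42-fold lower (log2 ratio -0.50). Mbl2, for mannose-binding lectin C, gave 5396.5 and 4420.5 (-0.29). Both lectins were lower by more than the spread of 0.18, and for Mbl1 8.0% of all measured genes had a ratio at or below it. The genes lie on different chromosomes and had 1 probe set each. The proteases showed no such difference. Masp1 read 1254.2 and 1215.7 (-0.04), and Masp2, which cleaves C4 and C2, 906.6 and 838.3 (-0.11).

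Further probe sets qualify the proteases. A second one of Masp2 went the other way, at 441.3 and 587.9 (0.41), so the direction of Masp2 depends on the probe set. Of the other 4 of Masp1, the ones at 179.0 and 160.9 (-0.15) and at 141.0 and 144.8 (0.04) lay near 0. The remaining ones were dim in at least 1 pool, and 1 of them, at 50.7 and 4.9 (-3.37), pulls the mean over all probe sets of the gene to -0.53. Scaled to the spike-ins, the ratios would be -0.24 for Mbl1, -0.03 for Mbl2, 0.21 for Masp1 and 0.15 for Masp2, each moved by the same amount.

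The convertase genes went in different directions. C2, the protease of the classical and lectin convertases, read 441.5 in the control pool and 511.1 in the squalene pool (log2 ratio 0.21). Cfb, which supplies the protease of the alternative convertase, read 2764.3 and 2230.7 (-0.31). Cfb was thus 1.24-fold lower and C2 1.16-fold higher, each past the spread of 0.18 for their tertile but not past 0.5. The ratio of C2 is within the 0.33 of the middle tertile, and its mean signal of 475.0 lies toward the lower end of the brightest, which starts at 321.0. Each gene had 1 probe set. In rank, 16.3% of all measured genes had a ratio at or below that of Cfb and 73.0% at or below that of C2. Scaling to the spike-ins would put Cfb at -0.05 and C2 at 0.47, each moved by the same amount. The plasma inhibitors differed less. Cfi, which cleaves C3b and C4b, read 8841.7 and 7800.5 (-0.18), a difference about as large as the spread. Its cofactor C4bp read 4560.4 and 4749.1 (0.06).

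Genes of the terminal pathway, whose products form the membrane pore, had ratios between -0.26 and 0.24 with a median of -0.10 over 6 genes. Hc, which encodes C5, read 1342.5 and 1246.2 (log2 ratio -0.11). C6 was the highest, at 1628.1 and 1916.4 (0.24), and C9, the pore-lining protein, gave 10897.5 and 10159.9 (-0.10). The 3 chains of C8 did not share a sign. C8a read 4987.1 and 4499.9 (-0.15), C8b, its neighbour in the genome, 1610.5 and 1731.4 (0.10), and C8g, 6454.2 and 5393.6 (-0.26). Of the 6 genes, 5 lay within 0.25 of 0, and 0 passed 0.5.

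In total the 14 hepatocyte-made complement genes had a median log2 ratio of -0.11, with 10 below 0, and the 18 hepatocyte-made coagulation genes one of 0.03, with 7 below 0. In the brightest tertile of measured genes, where all 32 lie, the median was -0.03 and 54.1% were below 0. The complement genes ran from -0.50 to 0.24 and the coagulation genes from -0.15 to 0.36, so the 2 groups overlapped from -0.15 to 0.24. Mbl1, Cfb, Mbl2, C8g and Cfi lay below all 18 coagulation genes, and F13b and Pros1 above all 14 complement genes. Within 0.25 of 0 lay 10 of the 14 complement genes (71.4%), 16 of the 18 coagulation genes (88.9%) and 72.0% of the brightest tertile.

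Fibrinogen, the precursor of the clot, is built from 3 chains whose genes, Fgg, Fga and Fgb, are neighbours in the RefSeq table. Fga read 13425.9 in the control pool and 13518.9 in the squalene pool (log2 ratio 0.01). Fgb gave 13514.8 and 14028.8 (0.05), and Fgg 13122.7 and 12618.1 (-0.06). All 3 chains thus differed by far less than the spread between probe sets, and their summed signal was 40063.4 against 40165.8. F13b, the carrier subunit of the enzyme that crosslinks fibrin, stood higher at 3071.9 and 3672.4 (0.26).

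The vitamin K dependent proteins, which need carboxylation to bind membranes, gave a median of 0.05 over 6 genes. F2, for prothrombin, read 7980.2 and 7693.7 (log2 ratio -0.05). F7, which starts the extrinsic pathway with tissue factor, gave 539.8 and 568.2 (0.07), and F9, the factor missing in haemophilia B, 3188.5 and 3321.5 (0.06). F10, the protease that activates prothrombin, read 2351.3 and 2428.3 (0.05) on its brightest probe set and 0.11 and -0.24 on the others. Proc, for the anticoagulant protein C, gave 3322.8 and 3238.6 (-0.04). These 5 thus read alike in both pools. The exception was Pros1, for the cofactor protein S, at 320.0 and 409.3, 1.28-fold higher (0.36). That was the highest ratio among the measured genes of the set, and 84.1% of all measured genes had a ratio at or below it.

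The contact system starts clotting on charged surfaces and releases bradykinin, and its 4 genes had ratios between -0.11 and 0.18. F12 gave 2636.7 and 2620.5 (log2 ratio -0.01) and F11 502.1 and 509.8 (0.02). Klkb1, for plasma prekallikrein and next to F11 in the genome, gave 2081.5 and 2366.0 (0.18), a difference about as large as the spread between probe sets. Kng1, for the kininogen that carries bradykinin, read 9962.2 and 9251.4 (-0.11), and 0.05 on its other probe set. F5, the cofactor of factor X, stood at 0.16 (2530.7 and 2818.6) and at 0.17 on its second probe set. Among regulators and the fibrinolytic system, Plg, for plasminogen, read 12441.3 and 11214.6 (-0.15), Vtn, for vitronectin, 9124.4 and 8294.7 (-0.14; 0.00 on the other probe set), and Hrg, for histidine-rich glycoprotein, 8708.5 and 8887.6 (0.03). All of these genes lay within 0.25 of 0.

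**Figure D4:**
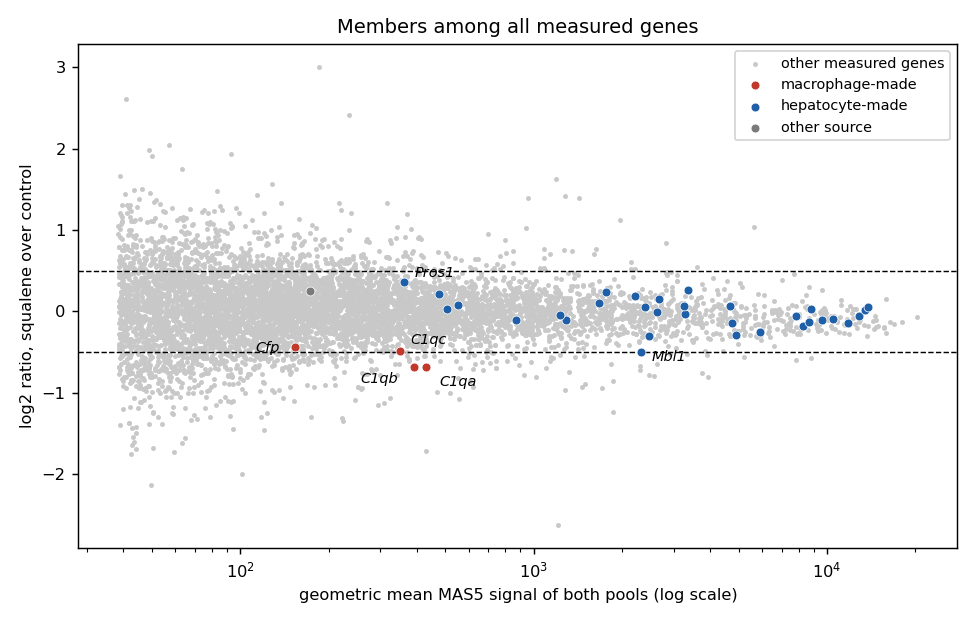
Log2 ratio of squalene over control against the geometric mean signal of both pools (log axis) for all 6902 measured genes (grey) and the 37 measured complement and coagulation genes, with dashed lines at -0.5 and 0.5. The hepatocyte-made genes lie at high signals close to 0, and the scatter of all genes widens toward low signals, so the same ratio is more common among dim genes than at the brightness of C1qa, C1qb and Mbl1.

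Genes of other or wider source were mostly dim. Cd59a, for an inhibitor of the membrane pore on cell surfaces, read 158.7 and 188.8 (log2 ratio 0.25), and 0.04 on its other probe set. Cd55, for an inhibitor that dissociates the convertases, missed the filter narrowly with a mean signal of 37.8, at 28.7 and 49.8 (0.80), and its other probe set gave 0.21. Tfpi, for the inhibitor of the tissue factor pathway, gave 0.51, 1.30 and -3.16 on its 3 probe sets, all with signals of 35.6 or less. No direction can be given for Tfpi.

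The other genes of the cascades, 59 in a fixed list, had 43 on the array and 26 measured. Their median log2 ratio was -0.07, with 1 higher and 2 lower past 0.5. The 2 of 26 (7.69%) are near the 8.08% of all measured genes, and 1 of 26 is below the 9.21%, so these counts are no result about the list. The lower genes were Vsig4, the Kupffer cell receptor for C3 fragments (945.8 and 584.5, -0.69), and Fcna, for ficolin A, a lectin pathway recognition protein made by macrophages (422.6 and 269.9, -0.65). The higher gene was Vwf, for von Willebrand factor of endothelial cells, at 33.3 and 58.2 (0.81), in the dimmest tertile of measured genes. Plasma inhibitors made by hepatocytes read alike in both pools: Serpinc1, for antithrombin, stood at -0.07, Serping1, for the C1 inhibitor, at -0.11, Serpind1 at 0.04 and Serpinf2 at -0.08. The subunits that join C1q in the C1 complex, C1ra (-0.25) and C1s1 (-0.06), differed less than the C1q chains did. Vkorc1, which recycles vitamin K for the carboxylation of clotting factors, read 4502.7 and 3554.4 (-0.34).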

How the data were processed

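Total RNA of 2 liver pools was labelled with biotin and hybridised to 1 Affymetrix array each, per the labels' protocols. Per the submitters' processing notes, the authors used MAS5, and the deposited table holds 1 linear intensity per probe set. Version, scaling target and detection calls are unstated in the sources used here. The trimmed mean signal was 200.1 on both arrays, and their median signals were 39.9 and 41.4. Actin had a 3′/5′ ratio of 2.80 (control) and 2.48 (squalene). The number of arrays limits the precision.

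Of 22690 probe sets, 64 were array controls, 20380 had 1 gene symbol in the platform annotation, 691 several and 1555 none. The RefSeq table held the Entrez numbers of all 41 analysed genes, with 0 symbols changed. Log2 ratios were taken without a pseudocount. The genes, their groups by source and role, the lists and limits were chosen with earlier results of these data known. All 44 genes were to be accounted for. Of the other pathway genes, those past 0.5 were to be named, as were up to 4 of the brightest per marker list. Serpins, C1ra, C1s1, Vkorc1, Adgre1, Tat and Stab1 were added after their values were seen.

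The alternatives were other filters, probe set choices, scalings, a floor, a pseudocount of 3.0 and limits of 1.0 and 1.5. The calculations, tested on simulated data, used Python 3.11.15, numpy 2.4.6, pandas 2.3.3, scipy 1.17.1 and matplotlib 3.10.9.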

Additional observations from a re-analysis of the deposited data

How the results depend on the processing

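No paired analysis was possible because each pool has 1 array. The difference of medians between macrophage-made and hepatocyte-made genes was below 0 under the 9 alternatives of filter, probe set, low signals and quantile normalization, from -0.67 with quantile normalization to -0.50. Centring and spike-in scaling cannot change it. Among the 9, the filters on at least 1 pool and on both pools and the floor left the same genes and signals in both groups. The difference under these was again -0.56. Single genes kept within the spread between probe sets in 403 of 447 values, and most of the other 44 came from spike-in scaling. Part of the 403 was fixed in advance. Other filters leave a gene's ratio as it is, and other probe set choices cannot change the ratio of a gene with 1 probe set. Centring moved every ratio by only -0.036. With no filter 3 genes of the set were higher, all dim, and 4 lower, beside 21.5% and 19.8% of all genes, and with a signal at or above the median in at least 1 pool 1 was higher, beside 11.3%. At limits of 1.0 and 1.5, 0 were lower. Scaled to the spike-ins, 3 were higher and 0 lower, beside 24.3% and 2.91% of all measured genes, whose median was 0.27, and the medians were 0.21 over all measured genes of the set, 0.24 hepatocyte-made, -0.33 macrophage-made, 0.15 hepatocyte-made complement, 0.28 hepatocyte-made coagulation and 0.18 other cascade genes. With quantile normalization they were 0.017 over all, 0.049 hepatocyte-made, 0.089 hepatocyte-made coagulation and -0.032 other cascade genes. After centring they were -0.081 over all, -0.059 hepatocyte-made and -0.11 other cascade genes, and where each gene took its smallest ratio, 0.0041 over all and 0.016 hepatocyte-made. Centring and spike-in scaling add 1 constant to every ratio, and the cause of the other changes was not tested. Signals near the array median limit C3ar1, C5ar1, Cd55 and Tfpi.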
